A study of Danio rerio with 72 samples.

Results

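Adult hypothalamus of stressed zebrafish that had met fluoxetine as embryos and larvae was compared with that of stressed fish raised in vehicle. The comparison was defined by the labels alone and took 12 of the 72 RNA-seq libraries of the series, 6 from fluoxetine-exposed, stressed fish and 6 from vehicle-exposed, stressed fish. All fish were of the SR4G transgenic line, in which a destabilised green fluorescent protein, d4EGFP, is transcribed under glucocorticoid response elements. Fluoxetine, a serotonin reuptake inhibitor used as an antidepressant, was given at 54 ug/L in the water until 6 days after fertilization, and vehicle fish received 0.0053% ethanol over the same days. The fish were adults of 6 months when the brain was taken, and each library was made from a pool of 5 hypothalami. Both groups had been stressed, and 12 unstressed hypothalamus libraries and 12 stressed telencephalon libraries with the same exposures are used below for comparison. The kind of stressor, the time from stress to dissection and the hour of day at which each group was sampled are not stated by the sources used here. Separate tanks or clutches for the 6 pools of each group are not stated by the labels, so p-values measure the spread between these pools, which may be partly technical.

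The hypothalamus holds the neurosecretory cells that start the stress response: corticotropin-releasing hormone acts on the pituitary, whose peptide from the POMC precursor drives cortisol synthesis, and cortisol binds the glucocorticoid receptor and feeds back on the brain. It also holds a circadian clock, as most zebrafish tissues do. In that clock, BMAL and CLOCK or NPAS2 proteins bind E-boxes and activate period, cryptochrome and REV-ERB genes, period and cryptochrome proteins block this activation, and REV-ERB and ROR receptors repress and activate BMAL transcription in turn. The transcripts of many clock genes follow the time of day, and in zebrafish several clock and DNA repair genes, including a cryptochrome-like photolyase, are also induced by light. Several of these genes, such as PER1, are known glucocorticoid receptor targets as well.

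The 12 libraries held between 15.5 and 22.8 M counts. A vehicle library, replicate 1, stood somewhat apart, with a median Spearman correlation of 0.956 to the other libraries of its group, against 0.972 or more for the others. Vehicle replicate 4 also stood apart, by the variance between 2 libraries over that of counting. This was 50.3 to 98.1 between replicate 4 and each library of its group. Among vehicle replicates 2, 3, 5 and 6 it was 8.63 to 25.9. None of the 53 hypothalamus regional markers was at 0 in every library of either group. In some libraries 3 were at 0 in the fluoxetine, stressed group and 2 in the vehicle, stressed group. Their summed levels were 856 to 1137 CPM (counts per M counts of the library) in fluoxetine, stressed libraries and 747 to 1235 CPM in vehicle, stressed libraries. Likewise, none of 24 cerebellum and hindbrain and 18 optic tectum and thalamus markers was at 0 in every library of either group. Of 15 lists of cell type and neighbouring region markers, 14 had no member past the threshold in edgeR's test. Of their 323 tested members, 43 had an unadjusted p under 0.05 in edgeR and 7 passed in DESeq2. Over all 18380 genes tested, these counts were 2939 and 716. Skeletal muscle markers held 14 of those 43, of 28 tested, with a median log2 fold change of 0.56 and 18 above 0, and 2 of them, the parvalbumin genes pvalb1 (2.90 ± 1.02) and pvalb4 (2.66 ± 0.98), named after their values were seen, passed in DESeq2. The mean log2 CPM of the muscle list was 1.19 to 2.33 in fluoxetine, stressed libraries and 0.88 to 1.23 in vehicle, stressed libraries, its summed level 213 to 355 CPM and 252 to 293 CPM, and none of its 39 members was at 0 in every library of either group; its part in the results below was not tested. The exception among the 15 lists was KCNJ13, a potassium channel gene of choroid plexus, at a log2 fold change of 1.32 ± 0.35 (SE) and an adjusted p of 0.0469, which was lost without any single library but fluoxetine replicates 3 and 4 and vehicle replicate 5, at 0.0547 to 0.116. Retina and pineal markers varied widely within both groups, with sums of 55.8 to 3152 CPM in fluoxetine, stressed libraries and 67.5 to 1943 CPM in vehicle, stressed libraries. Cerebellum and hindbrain markers summed to 2603 CPM in fluoxetine replicate 5, against a group median of 1098 CPM and at most 1493 CPM in vehicle, stressed libraries. Telencephalon markers were also highest in that library, at 753 CPM against a group median of 393 CPM and at most 502 CPM in vehicle, stressed libraries. The part of these marker levels in the results below was not tested. In pooled tissue, fewer cells of a type and less RNA per cell cannot be told apart.

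In the stressed hypothalamus, early fluoxetine was accompanied by a change in 380 of 18380 genes tested (2.07%), of which 148 (0.805%) were higher and 232 (1.26%) lower in fluoxetine fish. A gene is said to have risen, fallen or passed where its p from the quasi-likelihood test of edgeR, after Benjamini-Hochberg adjustment over all genes tested, was under 0.05. Most shifts were small: 34 genes rose and 48 fell by more than 2-fold, and the median absolute log2 fold change of the genes that passed was 0.60. For 257 of the 380 (67.6%) the 6 fluoxetine libraries and the 6 vehicle libraries did not overlap in CPM, as they did not for 469 of all genes tested (2.55%). The total depended on single libraries: it was 606 without vehicle replicate 4, 245 without vehicle replicate 6 and 229 without fluoxetine replicate 5. Library numbers in the labels split each group into replicates 1 to 3 and replicates 4 to 6, and within these ranges of library numbers (n = 3 a group) 180 and 32 genes passed.

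Among the gene lists, which were chosen with earlier results of these data known, the circadian clock had the most members past the threshold. Of 53 tested clock genes 17 rose and 13 fell (56.6% of the members, against 2.07% of all genes). For 27 members the groups did not overlap, 16 of them higher and 11 lower, against 2.55% of all genes (1.21% higher and 1.34% lower). These shares over all genes hold beside the counts by clock role below as well. Because members moved both ways their median log2 fold change was 0.09, against 0.01 over all genes. Of the 12 largest rises with a symbol 7 were clock genes, as were 6 of the 12 largest falls. Other lists had fewer such members, and 9 of 23 pathway and family lists had none by edgeR. Of the 387 tested members of those 9, 48 had an unadjusted p under 0.05 in edgeR and 7 passed in DESeq2. Of all 18380 genes, 2939 and 716 did so. The clock count was 24 within the first range of library numbers, 15 within the second, 24 to 29 with any 1 library left out and 26 without vehicle replicates 1 and 4. Since the sampling hour of each group is not stated, exposure and hour cannot be told apart for these genes or for any other gene compared here. The part of the hour was not tested.

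**Figure D1:**
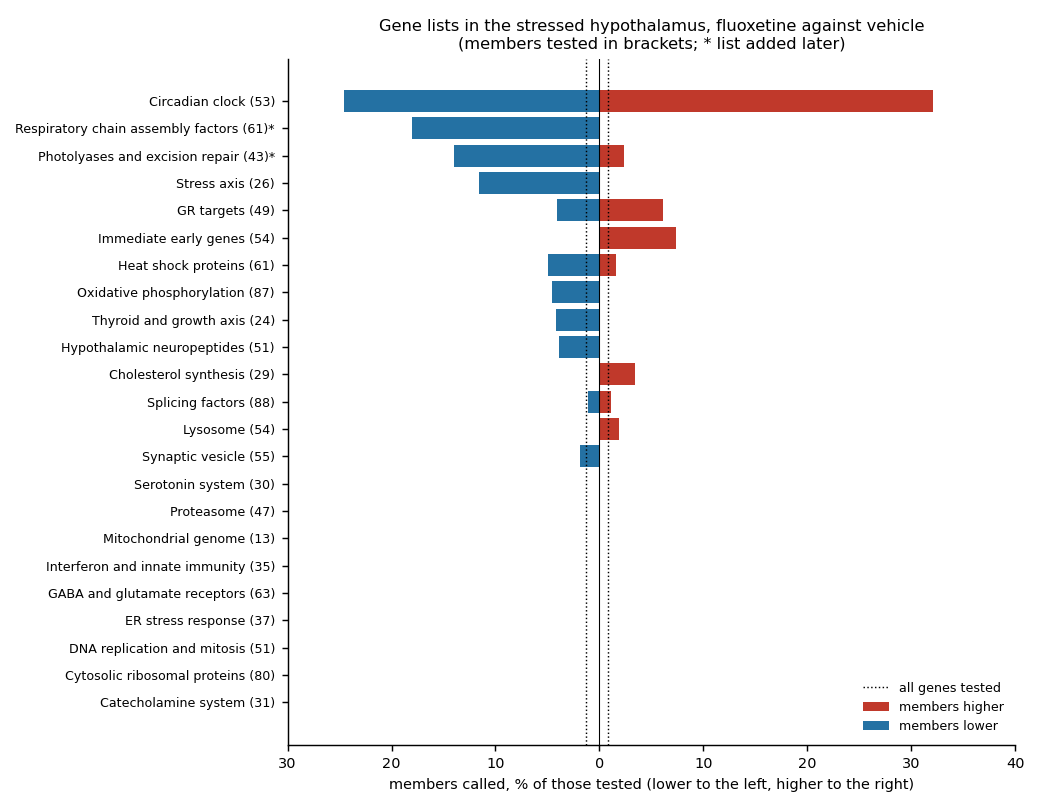
Share of the tested members of each gene list that rose (right) or fell (left) in fluoxetine against vehicle, stressed hypothalamus, in percent, with the number of tested members in brackets and the shares over all genes tested (0.805% higher, 1.26% lower) as dotted lines. The circadian clock list, with 17 members higher and 13 lower of 53, reaches furthest in both directions.

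The nuclear receptors of the REV-ERB group, which repress BMAL transcription, were among the strongest rises, with 3 of 5 tested members higher. For nr1d4b, a REV-ERB-related gene, the lowest, median and highest levels were 5.58, 7.89 and 10.1 CPM in fluoxetine, stressed libraries and 0.514, 1.21 and 2.56 CPM in vehicle, stressed libraries. It was 5.93-fold higher (log2 fold change 2.57 ± 0.26 SE, edgeR adjusted p = 5.59e-07), and every fluoxetine library lay above every vehicle library. NR1D1, which encodes REV-ERB alpha, had 158, 181 and 222 CPM in fluoxetine, stressed libraries and 41.2, 53.8 and 64.3 CPM in vehicle, stressed libraries. Its 3.41-fold rise (1.77 ± 0.15, adjusted p = 1.13e-08) again left no overlap, and it measured 1.71 and 1.83 in the 2 ranges of library numbers. The third, nr1d4a, rose by 1.32 ± 0.18 (adjusted p = 3.86e-05). NR1D2 (0.12, adjusted p = 0.662) and nr1d2a (-0.21, adjusted p = 0.556) did not pass.

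Both PER1 genes, whose products inhibit BMAL and CLOCK, rose in fluoxetine fish. PER1 (ENSDARG00000056885) had 94.7, 106 and 121 CPM as the lowest, median and highest of the fluoxetine, stressed libraries and 30.3, 33.9 and 40.2 CPM in the vehicle, stressed libraries. The groups were far apart, with a 3.11-fold rise (1.64 ± 0.10, adjusted p = 1.66e-11) that measured 1.69 in the first range of library numbers and 1.59 in the second. PER1 (ENSDARG00000012499) had 354, 383 and 389 CPM in fluoxetine, stressed libraries, against 185, 208 and 221 CPM in vehicle, stressed libraries (0.88 ± 0.07, adjusted p = 3.39e-09), again without overlap. The other period genes did not pass: PER2, the light-inducible member, had a log2 fold change of -0.27 ± 0.09 (adjusted p = 0.127) and PER3 one of 0.16 ± 0.13 (adjusted p = 0.575).

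All 6 tested genes for other repressors of BMAL and CLOCK rose, and none of their groups overlapped. The gene cipca, for a CLOCK-interacting protein, had 18.7, 23.3 and 26.4 CPM in fluoxetine, stressed libraries and 2.31, 4.90 and 6.05 CPM in vehicle, stressed libraries, a 4.82-fold rise (2.27 ± 0.16, adjusted p = 7.98e-10). The gene ciarta, for a circadian-associated repressor, had 136, 154 and 171 CPM in fluoxetine, stressed libraries and 39.7, 59.8 and 65.7 CPM in vehicle, stressed libraries (1.43 ± 0.10, adjusted p = 7.82e-10). In both cases all 6 fluoxetine libraries were higher than any vehicle library. Its paralog ciartb rose by 1.40, and the E-box-binding repressor genes BHLHE41 and BHLHE40 by 1.3 (adjusted p = 3.21e-08) and 0.58 (adjusted p = 1.78e-05). The smallest of these rises, that of cipcb (0.52 ± 0.13, adjusted p = 0.0382), was lost without any single one of the 12 libraries, at adjusted p = 0.0524 to 0.0879.

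The PAR bZIP factors, D-box-binding output regulators of the clock, were mostly higher: 4 of 6 tested members rose and 1 fell. The D-box activator gene dbpb had a log2 fold change of 1.34 ± 0.17 (adjusted p = 1.09e-05), with levels of 230 to 344 CPM in fluoxetine, stressed libraries and 65.1 to 139 CPM in vehicle, stressed libraries. Its paralog dbpa rose by 0.94 ± 0.13 (adjusted p = 6.37e-05), and neither gene overlapped between groups. The calls of the other members depended on the libraries: hlfa (0.59, adjusted p = 0.0417) was lost without any single library but fluoxetine replicate 6 and vehicle replicates 2 and 3. The fall of tefa (-0.69, adjusted p = 0.027) was lost without fluoxetine replicate 1, 3, 5 or 6 or vehicle replicate 1, 3, 5 or 6, and the rise of tefb (0.70, adjusted p = 0.0307) without fluoxetine replicate 1, 3, 5 or 6 or vehicle replicate 1 or 6. The adjusted p without such a library lay between 0.0529 and 0.115. Of the 4 tested NFIL3 repressor genes, whose products bind the same D-boxes, 2 fell, nfil3-5 (-0.92 ± 0.13, adjusted p = 0.000112) and NFIL3 (-0.68 ± 0.11, adjusted p = 0.00051).

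The activators showed the reverse, with 3 of 6 tested genes lower and 0 higher in fluoxetine fish. BMAL1 (ENSDARG00000035732) had 1.18, 1.82 and 2.79 CPM in fluoxetine, stressed libraries and 5.14, 7.49 and 12.5 CPM in vehicle, stressed libraries. It fell to 0.249 of the vehicle level (-2.0 ± 0.24, adjusted p = 8.59e-06) with no overlap between groups. BMAL1 (ENSDARG00000006791) had 7.64, 8.68 and 10.5 CPM in fluoxetine, stressed libraries, against 20.3, 25.8 and 29.7 CPM in vehicle, stressed libraries (-1.54 ± 0.13, adjusted p = 1.13e-08), and its groups were equally distinct. The CLOCK paralog npas2 fell by 1.3 on the log2 scale (adjusted p = 0.0224); this was lost without fluoxetine replicate 1 (adjusted p = 0.0554) or fluoxetine replicate 4 (0.0543), and vehicle replicate 1, at 6.04 CPM, lay within the fluoxetine range of 4.65 to 6.58 CPM. The 2 CLOCK genes (-0.27 and -0.40) and bmal2 (-0.59, adjusted p = 0.106) did not pass. Of the ROR receptors, which activate BMAL transcription, rorcb and rorca fell. The first had 3.77, 5.99 and 7.97 CPM in fluoxetine, stressed libraries and 12, 16.8 and 20.1 CPM in vehicle, stressed libraries (-1.51 ± 0.17, adjusted p = 3.82e-06), while rorca overlapped (-0.83, adjusted p = 0.0169); the other 4 tested did not pass.

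**Figure D2:**
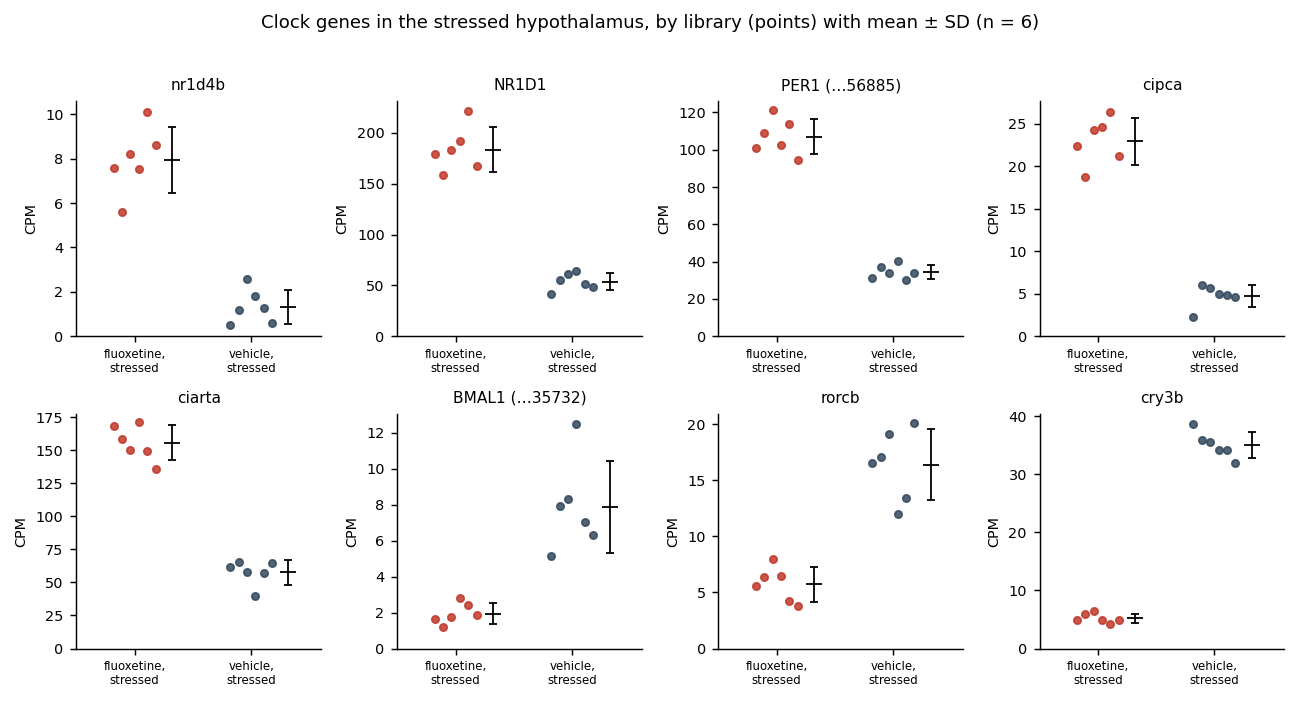
Levels in CPM of 8 clock genes in the 6 libraries of each stressed group (points), fluoxetine on the left and vehicle on the right, with mean ± SD beside them. The groups do not overlap for any of the 8: nr1d4b, NR1D1, PER1 (ENSDARG00000056885), cipca and ciarta are higher and BMAL1 (ENSDARG00000035732), rorcb and cry3b lower in fluoxetine fish.

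The cryptochromes split. Of 8 tested cryptochromes and photolyase-like genes 2 rose and 5 fell, and the groups did not overlap for any of the 8. The largest fall of any named gene was that of cry3b, which had 4.29, 4.95 and 6.41 CPM in fluoxetine, stressed libraries and 32, 34.9 and 38.7 CPM in vehicle, stressed libraries. Its level in fluoxetine fish was 0.149 of that in vehicle fish (-2.74 ± 0.14, adjusted p = 5.76e-13), with -2.68 and -2.81 in the 2 ranges of library numbers. Its paralog cry3a had 51, 61.6 and 79 CPM in fluoxetine, stressed libraries and 205, 228 and 248 CPM in vehicle, stressed libraries (-1.83 ± 0.14, adjusted p = 2.07e-09). The gene cry4 fell by 1.06 on the log2 scale (adjusted p = 1.03e-06). CRY2 rose by 0.97 ± 0.09 (adjusted p = 2.06e-07). CRY1 (ENSDARG00000011583) rose by 0.39, a call that was lost without fluoxetine replicate 1, 2, 4 or 5 or vehicle replicate 1, 5 or 6 (adjusted p = 0.0542 to 0.0909), and CRY1 (ENSDARG00000045768) was at -0.19 (adjusted p = 0.204). None of the 8 tested genes of clock protein turnover and timing, among them the casein kinase gene CSNK1D, passed. In all, 24 of the 30 clock genes that passed did so without any 1 library.

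**Figure D3:**
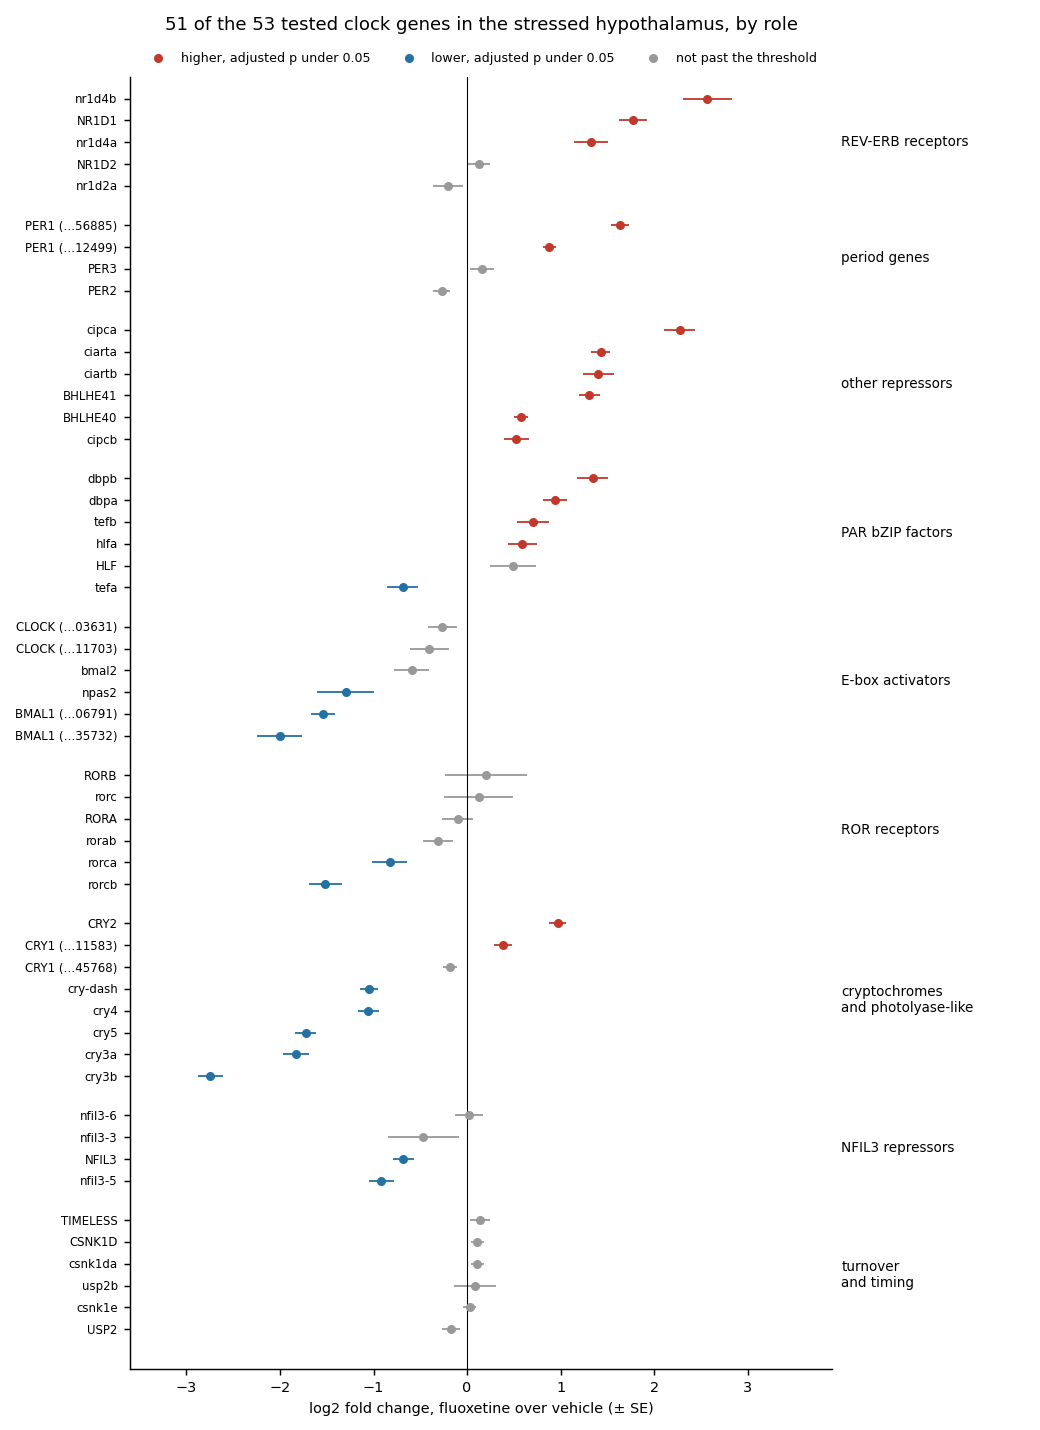
Log2 fold changes (± SE) of 51 of the 53 tested clock genes, fluoxetine over vehicle in the stressed hypothalamus, grouped by role and coloured by whether they rose, fell or did not pass. Members run from 2.57 (nr1d4b) to -2.74 (cry3b); all 6 other repressors lie above 0, and the 6 E-box activators lie below it.

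DNA repair genes, several of which are known to be induced by light in zebrafish, were examined in a list written after the values were seen. A response to light was not tested here. Of 43 tested photolyases and excision repair genes 1 rose and 6 fell (16.3% of the members, against 2.07% of all genes), with a median of -0.03. The falls of cry5 and cry-dash are counted in the clock list as well. The photolyase genes lay on the falling side. The 6-4 photolyase gene cry5 had 4.07, 4.34 and 4.65 CPM in fluoxetine, stressed libraries and 13.2, 14.2 and 16.2 CPM in vehicle, stressed libraries (-1.73 ± 0.12, adjusted p = 2.76e-10). The gene cpdp, for a photolyase of cyclobutane pyrimidine dimers, had 9.54, 11.3 and 12.3 CPM in fluoxetine, stressed libraries and 22.0, 24.9 and 27.3 CPM in vehicle, stressed libraries (-1.14 ± 0.09, adjusted p = 3.39e-09). The related cry-dash fell by 1.05 (adjusted p = 7.97e-08), and for none of the 3 did the groups overlap. The base excision genes xrcc1, a scaffold of single-strand break repair (-0.83 ± 0.09, adjusted p = 2.51e-06), and NEIL1, a glycosylase for oxidised bases (-1.32 ± 0.15, adjusted p = 3.26e-06), fell as well. ERCC6, of transcription-coupled repair, fell by 0.56 (adjusted p = 0.0169, but 0.0889 without vehicle replicates 1 and 4). The glycosylase gene ogg1 was the member that rose (0.70, adjusted p = 0.0304), and its call was lost without any single library but fluoxetine replicate 1 and vehicle replicates 4, 5 and 6, at 0.0546 to 0.0781.

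Outside the clock, the lowest p of all genes with a symbol that rose was that of smu1b, which encodes a spliceosomal factor. Its levels were 329, 361 and 413 CPM in fluoxetine, stressed libraries and 66.8, 77.4 and 83.2 CPM in vehicle, stressed libraries. The rise was 4.78-fold (2.26 ± 0.09, adjusted p = 1.85e-14), with 2.23 and 2.29 in the 2 ranges of library numbers and a wide gap between the groups. The splicing factor list as a whole had 2 of 88 tested members past the threshold (2.27%, near the 2.07% of all genes), smu1b and, in the other direction, hnrnpa0b (-0.43 ± 0.08, adjusted p = 0.00132). The unannotated si:ch211-132b12.7 rose by 1.95 ± 0.10 (adjusted p = 5.76e-13), and abi3bpa, the integrin alpha subunit gene ITGA8 and soul5l by 1.61, 1.33 and 1.36. Among the falls, the unannotated si:dkey-100n23.4 was at -1.92, the biliverdin reductase gene BLVRA at -1.55 (adjusted p = 0.0015), lonrf4 at -1.29 (adjusted p = 7.28e-07) and RAD54L2, for a DNA-dependent ATPase, at -0.90 (adjusted p = 6.78e-09).

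Genes for assembly of the mitochondrial respiratory chain made up the second list that was written after the values were seen. Of 61 tested assembly factors 0 rose, 11 fell (18% of the members, against 1.26% of all genes) and 50 did not pass, and their median log2 fold change was -0.23, against 0.01 over all genes. SDHAF2, which helps to insert the flavin of complex II, had 25, 32.4 and 35.6 CPM in fluoxetine, stressed libraries and 57.3, 61.9 and 71.7 CPM in vehicle, stressed libraries (-1.01 ± 0.08, adjusted p = 6.78e-09), without overlap. The complex III factor gene uqcc3 fell by 1.13 (adjusted p = 1.79e-07), the intermembrane space import gene chchd4b by 1.14 (adjusted p = 1.14e-05), the heme lyase gene HCCS (ENSDARG00000028131) by 0.99 (adjusted p = 3.26e-06) and the copper chaperone gene cox17 by 0.79 (adjusted p = 0.00444). Some smaller falls depended on a single library. That of CHCHD4 (-0.51) was lost without fluoxetine replicate 1, 2 or 3 or vehicle replicate 6, that of uqcc4 (-0.57) without fluoxetine replicate 1, 3, 4 or 5 or vehicle replicate 1 or 6, and that of SURF1 (-0.47) without any fluoxetine library or vehicle replicate 1 or 6, at adjusted p = 0.0508 to 0.0916. Of 87 tested nuclear subunits of oxidative phosphorylation 4 fell (4.6%, against 1.26% of all genes): SDHA (-0.34, adjusted p = 0.00169), NDUFV1 (-0.34, adjusted p = 0.00212), CYC1 (-0.36, adjusted p = 0.00714) and SDHB (-0.41, adjusted p = 0.0293, but 0.056 to 0.0756 without fluoxetine replicate 1, 2, 4 or 5 or vehicle replicate 1, 2 or 6). None of the 13 genes of the mitochondrial genome passed in edgeR or DESeq2, and their median was -0.21. An unadjusted p under 0.05 was found for 3 of the 13, against 2939 of all 18380 genes.

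Chaperone genes showed a small fall of the mitochondrial chaperonin pair. Of 61 tested heat shock genes 1 rose and 3 fell (6.56%, against 2.07% of all genes). HSPD1 and HSPE1, the chaperonin and its lid, fell by 0.49 ± 0.06 (adjusted p = 1.78e-05) and 0.48 ± 0.08 (adjusted p = 0.000539), and DNAJB11, of the endoplasmic reticulum, by 0.45. HSF2, a heat shock transcription factor gene, had 104 to 115 CPM in fluoxetine, stressed libraries and 57.2 to 81.5 CPM in vehicle, stressed libraries, a rise of 0.69 ± 0.07 (adjusted p = 5.59e-07).

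Of 26 tested genes of the stress axis 0 rose, 3 fell (11.5%, against 1.26% of all genes) and 23 did not pass, with a median of -0.05, against 0.01 over all genes. HSD11B2, whose enzyme inactivates cortisol, had 13.5, 20.7 and 25.6 CPM in fluoxetine, stressed libraries and 30.1, 36.6 and 45.1 CPM in vehicle, stressed libraries. It fell to 0.542 of the vehicle level (-0.88 ± 0.18, adjusted p = 0.00674) without overlap. In the 2 ranges of library numbers (n = 3 a group) it measured -0.86 and -0.90 and passed in neither (edgeR adjusted p = 0.126 and 0.39). The other members that fell were glucocorticoid receptor chaperones, FKBP4 (-0.47 ± 0.07, adjusted p = 0.000114) and HSP90AA1 (-0.46 ± 0.09, adjusted p = 0.00735). FKBP5, a co-chaperone induced by the receptor that lowers its affinity for cortisol, had 525, 565 and 692 CPM in fluoxetine, stressed libraries and 741, 792 and 964 CPM in vehicle, stressed libraries. Its groups did not overlap, but its log2 fold change of -0.49 ± 0.23 did not pass (adjusted p = 0.294); fitted with these 12 libraries alone, the adjusted p was 0.0184.

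The receptor's reporter and the hormone genes did not pass. The reporter d4EGFP had 48.9, 62.3 and 183 CPM in fluoxetine, stressed libraries and 48.9, 105 and 143 CPM in vehicle, stressed libraries (-0.03 ± 0.33, adjusted p = 0.971), so the ranges overlapped almost fully. KLF9, a receptor target, averaged 115 ± 9.09 CPM in fluoxetine, stressed libraries and 107 ± 24.8 CPM in vehicle, stressed libraries (SD, n = 6 each; 0.11 ± 0.24, adjusted p = 0.86). The log2 fold changes of the glucocorticoid receptor gene NR3C1 (-0.13 ± 0.11), the mineralocorticoid receptor gene NR3C2 (0.21 ± 0.37), CRH (-0.24 ± 0.17), POMC (0.51 ± 0.22) and the cortisol-reducing enzyme gene hsd20b2 (0.01 ± 0.16) had adjusted p values of 0.265 or more. Of 49 tested glucocorticoid receptor targets 3 rose and 2 fell (10.2%, against 2.07% of all genes). The rises included both PER1 genes, and the falls were HSD11B2 and FAM107B (-0.50), the last lost without vehicle replicate 2 (adjusted p = 0.0515), fluoxetine replicate 1 (0.0517) or fluoxetine replicate 6 (0.056).

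Immediate early genes, which neurons transcribe within minutes of activity, moved only upward among those that passed, 4 of 54 tested (7.41%, against 0.805% of all genes). FOS had 29.2, 46.6 and 58.7 CPM in fluoxetine, stressed libraries and 12.3, 20.7 and 27.9 CPM in vehicle, stressed libraries, a 2.15-fold rise (1.1 ± 0.18, adjusted p = 0.000616). The transcription factor gene egr4 had 57.4, 65.3 and 79.5 CPM in fluoxetine, stressed libraries and 28.6, 37 and 42.9 CPM in vehicle, stressed libraries (0.89 ± 0.15, adjusted p = 0.00112), and neither gene's groups overlapped. The phosphatase subunit gene ppp1r15b rose by 0.69 (adjusted p = 0.00173). NPAS4 (ENSDARG00000055752) was at the threshold (0.48 ± 0.13, adjusted p = 0.0498) and did not pass without any single library but fluoxetine replicate 1 and vehicle replicate 4 (0.0643 to 0.134). The related egr1 did not pass (0.43 ± 0.13, adjusted p = 0.0765), but did with the replicate number as a block (0.0435) and in DESeq2 (0.0327).

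Of 51 tested neuropeptide genes 0 rose and 2 fell (3.92%, against 1.26% of all genes): tac3b, for neurokinin B, at low counts (-1.53 ± 0.35, adjusted p = 0.0177, but 0.0512 without fluoxetine replicate 5), and CARTPT (ENSDARG00000045832), for an appetite-reducing peptide (-0.65 ± 0.17, adjusted p = 0.0415, but 0.0514 to 0.103 without any single library other than vehicle replicates 4 and 6). The nonapeptide genes avp (-0.50 ± 0.40) and oxt (-0.62 ± 0.57) and the feeding peptide gene NPY (-0.34 ± 0.20) did not pass. None of 30 tested serotonin genes passed in edgeR. An unadjusted p under 0.05 was found for 5 of them, against 2939 of all 18380 genes. In DESeq2 1 passed, against 716 of all genes: the receptor gene HTR1D, named after its value was seen. SLC6A4, the serotonin transporter on which fluoxetine acts, had 0, 3.48 and 7.63 CPM in fluoxetine, stressed libraries and 0.573, 1.2 and 3.03 CPM in vehicle, stressed libraries (1.38 ± 0.70, adjusted p = 0.338); the count of 0 in fluoxetine replicate 5 allows up to 0.119 CPM (3 counts), for counting error only. The serotonin synthesis genes were at -0.30 ± 0.12 for TPH1 (ENSDARG00000036082), 0.15 ± 0.10 for TPH1 (ENSDARG00000029432) and 0.41 ± 0.79 for TPH2. Of the thyroid and growth axis, DIO2, whose deiodinase activates thyroid hormone, fell by 0.69 ± 0.14 (adjusted p = 0.00815), with 47.9 to 82.7 CPM in fluoxetine, stressed libraries and 100 to 112 CPM in vehicle, stressed libraries. Single members of other lists that passed included the progranulin gene grnb of the lysosome list (0.46, lost without fluoxetine replicate 3 or 6 or vehicle replicate 1) and the synaptotagmin gene SYT9 of the synaptic vesicle list (-0.45, lost without fluoxetine replicate 1, 2, 3 or 5 or vehicle replicate 3 or 6). Their adjusted p values then lay between 0.0524 and 0.0678.

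The same exposure contrast in unstressed hypothalamus, which shares no library with the stressed contrast, called 4478 of 18380 genes (24.4%). The 2 ranges of library numbers differed widely in that count (n = 3 a group). Within the lower range 2292 genes passed, 1855 of them among the 4478, and within the higher range 1 gene passed. Of the 380 genes of the stressed contrast 107 passed there in the same direction (28.2% of the 380 and 2.39% of the 4478) and 7 in the opposite one (1.84% and 0.156%). Clock genes differed between the contrasts: in unstressed fish 20 of the 53 rose (16.5% of all genes rose) and 0 fell, with BMAL1 (ENSDARG00000035732) at 0.82 (adjusted p = 0.0223) and npas2 at 1.2 (adjusted p = 0.0204). The interaction, the stressed minus the unstressed log2 fold change, passed for 94 genes (0.511%), 23 of them clock genes, 10 with a positive and 13 with a negative interaction. That count was 956 without vehicle, stressed replicate 1. The interaction was 2.09 for smu1b (adjusted p = 1.43e-10), 2.12 for si:ch211-132b12.7, 1.76 for NR1D1, 1.42 for PER1 (ENSDARG00000056885), -2.82 for BMAL1 (ENSDARG00000035732) and -2.67 for cry3b, and for 5 of the 6 E-box activators it passed with a negative sign. Taken as lists, mitochondrial genes also had falls in unstressed fish, though not all in the same genes. In unstressed fish 25 of the 61 assembly factors fell and 0 rose (7.89% of all genes fell), with a median of -0.29. Of the nuclear subunits of oxidative phosphorylation 32 of 87 fell there, as did 10 of the 13 genes of the mitochondrial genome. Falls in unstressed fish were not confined to mitochondrial lists: 59 of 80 tested cytosolic ribosomal protein genes fell, with a median of -0.44. The interaction passed for 3 assembly factors, with a negative sign: SDHAF2 (-0.86), uqcc3 (-0.82) and HCCS (ENSDARG00000028131, -1.01). These are among the larger falls of the stressed contrast. For SDHAF2 and uqcc3 the fall was larger there than in unstressed fish. For HCCS the interaction was as large as the whole stressed fall (-0.99), so it did not fall in unstressed fish.

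Across the 4 hypothalamus groups, the vehicle, stressed libraries were those with the deviating level of smu1b, PER1 (ENSDARG00000056885), BMAL1 (ENSDARG00000035732) and cry3b. For smu1b the means were 367 ± 34.4 CPM in fluoxetine, stressed libraries, 76.7 ± 5.59 CPM in vehicle, stressed libraries, 399 ± 61.4 CPM in fluoxetine, unstressed libraries and 355 ± 21.2 CPM in vehicle, unstressed libraries (SD, n = 6 each). For cry3b the same means were 5.24 ± 0.771, 35.1 ± 2.24, 6.62 ± 1.43 and 6.99 ± 1.12 CPM. FKBP5 and KLF9 followed another pattern and were higher in both stressed groups: FKBP5 averaged 582 ± 66.9 CPM in fluoxetine, stressed, 819 ± 87.7 CPM in vehicle, stressed, 64.3 ± 20.4 CPM in fluoxetine, unstressed and 63.2 ± 27.8 CPM in vehicle, unstressed libraries.

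**Figure D4:**
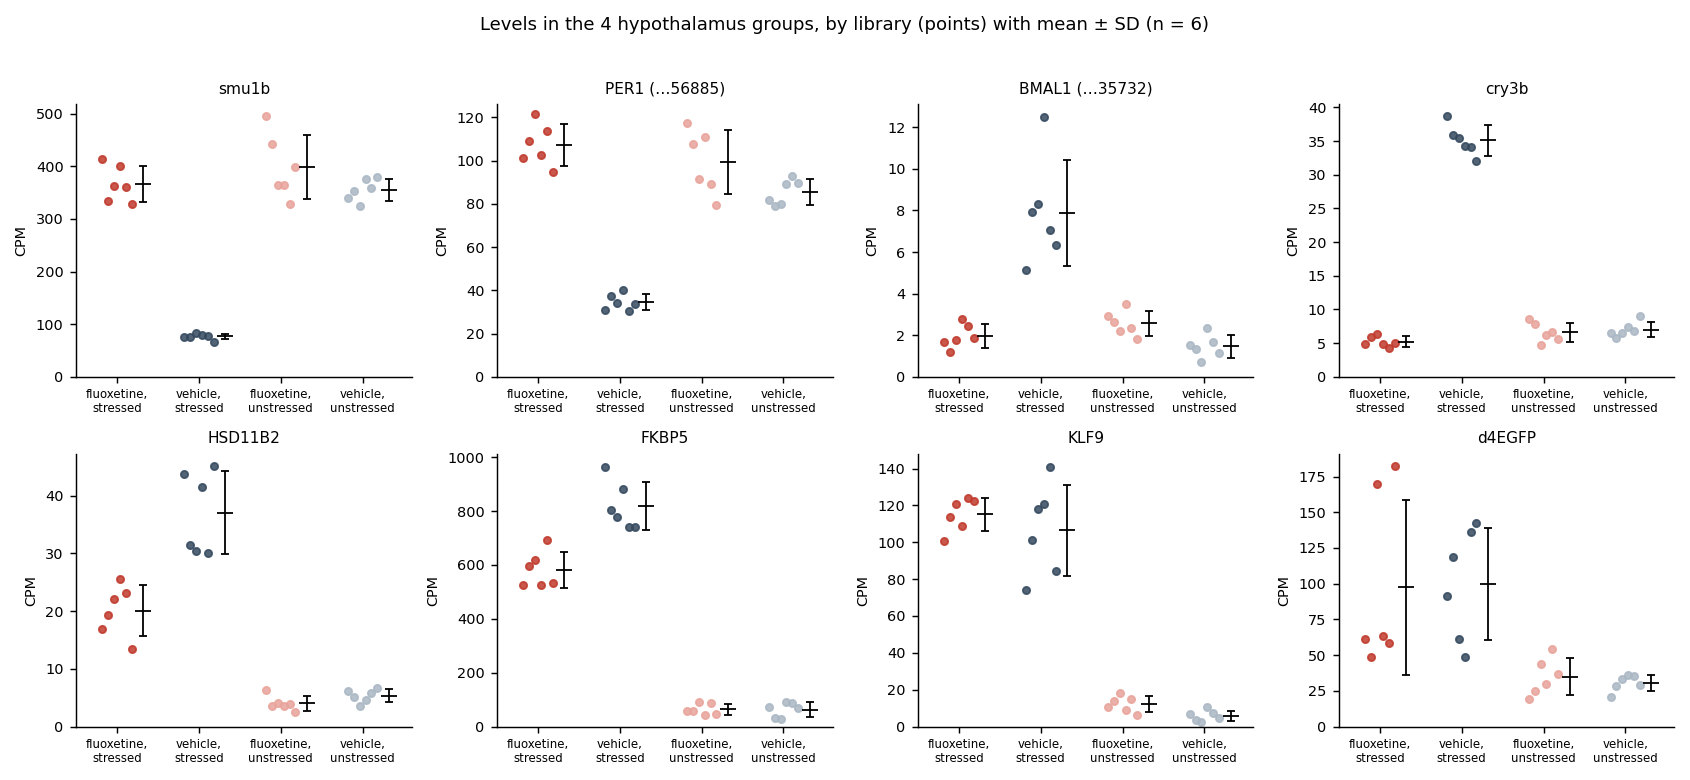
Levels in CPM of 8 genes in the 4 hypothalamus groups of 6 libraries (points, with mean ± SD). For smu1b, PER1 (ENSDARG00000056885), BMAL1 (ENSDARG00000035732) and cry3b the vehicle, stressed libraries lie apart from the other 3 groups, while HSD11B2, FKBP5 and KLF9 are higher in both stressed groups than in both unstressed ones.

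In the telencephalon of stressed adults, the genes that had also passed in the hypothalamus moved in the same direction. There 645 of 18367 genes passed (3.51%), 1.16% higher and 2.35% lower, and 188 of these were among the 380 of the hypothalamus (49.5% of the hypothalamus list and 29.1% of the telencephalon list), all in the same direction. Of the 30 clock genes that passed in the hypothalamus 27 passed in the telencephalon with the same sign, the exceptions being nr1d4a, ciartb and CRY1 (ENSDARG00000011583). PER1 (ENSDARG00000056885) averaged 83.0 ± 4.66 CPM in fluoxetine and 31.5 ± 3.11 CPM in vehicle telencephalon, NR1D1 112 ± 8.37 and 33.5 ± 4.08 CPM, and cry3b 8.28 ± 0.967 and 31.6 ± 6.37 CPM (SD, n = 6 each). All 6 assembly and repair genes SDHAF2, uqcc3, HCCS (ENSDARG00000028131), cry5, cpdp and NEIL1 passed there with log2 fold changes between -0.91 and -1.69. HSD11B2 (-0.77, adjusted p = 0.0214), FOS (0.89) and egr4 (0.92) passed as well, and FKBP5 (-0.49, adjusted p = 0.242) did not. A test of the difference between the regions, hypothalamus minus telencephalon, passed for 4 of 19144 genes (0.0209%, with 0.0104% higher and 0.0104% lower): smu1b (0.84 ± 0.11, adjusted p = 8.7e-06), nr1d4b (1.54 ± 0.28, adjusted p = 0.00902), adam19a (-0.98) and THSD7B (-0.90), the last pair named after their values were seen; 1051 genes had an unadjusted p under 0.05. The telencephalon count was 1132 without vehicle replicate 2 and 1299 without vehicle replicate 5, and 371 to 427 without fluoxetine replicate 2, 3, 4 or 6 or vehicle replicate 1, 3 or 6. The count of region differences was 8 without vehicle telencephalon replicate 1 or 4. Whether the libraries of the 2 regions came from the same fish is not given in the sources used here.

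**Figure D5:**
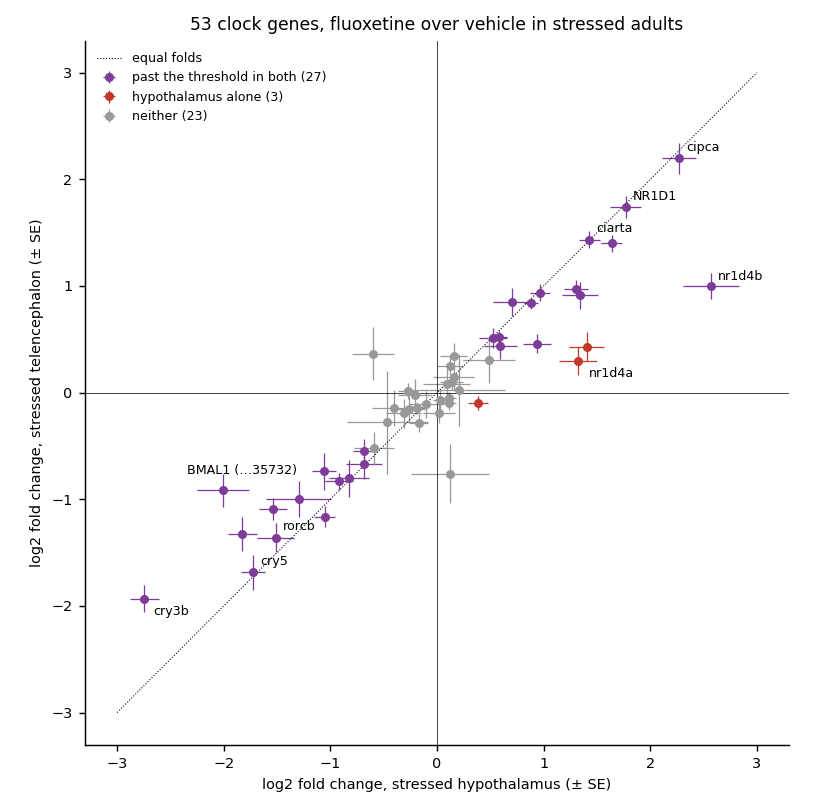
Log2 fold changes (± SE) of the 53 clock genes, fluoxetine over vehicle in stressed adults, in hypothalamus (x axis) and telencephalon (y axis), with the line of equal folds dotted. The 27 genes that passed in both regions lie in the same direction in both, and nr1d4b lies furthest from the line among them, at 2.57 in the hypothalamus and 1.0 in the telencephalon.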

How the data were processed

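Total RNA was extracted on columns and stranded poly(A) RNA libraries were made, per the labels. The authors deposited whole-number read counts per gene, 1 column per library, in a table of 31902 entries. Per the submitters' processing notes, reads were handled with bcl2fastq 2.17.1.14, cutadapt, STAR 2.5 and DESeq2; how reads were counted (program and strand setting) and against which genome build and annotation is not given in the sources used here. Symbols from a reference table matched 29178 entries, and many zebrafish genes there carry a human ortholog's symbol; 6310 entries share a symbol, and reads could split between near-identical copies, so such names carry their identifier.

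The 24 hypothalamus libraries were fitted as 4 groups in edgeR 4.0.16 (R 4.3.3, limma 3.58.1, statmod 1.5.0) with TMM scaling and filterByExpr at a count of 10 and a total of 15. Tests were quasi-likelihood F-tests in robust mode, adjusted by Benjamini-Hochberg over all genes tested at a threshold of 0.05. The 24 telencephalon libraries, and for the region difference all 48 adult libraries, were fitted in the same way. CPM used TMM-scaled library sizes and are not scaled by length, so levels of different genes are not compared. Fold changes are on the log2 scale, fluoxetine over vehicle, with SE.

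Genes were named by rule: the 12 largest rises and falls with a symbol and a mean log2 CPM of at least 1, up to 2 members of each list and direction by lowest p, the 5 lowest p in each direction, and a set of stress, serotonin and activity genes whatever their result. All clock, repair and assembly genes were tabulated, and those outside the rule were chosen after their values were seen. The members, the 36 gene lists and 2 later lists were chosen with earlier results of these data known. No test of a list was made. A few genes that the rule or the lists hold are not reported here.

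No pair of libraries within a stressed group was a duplicate, with at least 8.20 times the variance of counting. Replicate numbers are shared between groups. They did not pair the fluoxetine and vehicle libraries of stressed hypothalamus, where 0 of 6 same-numbered residual correlations exceeded 0.1. Pairing in the other groups was not checked. Alternatives were RLE scaling, no filter, the replicate block, the library-number range as a term or a subset, DESeq2 1.42.0, the compared groups alone, each library left out and, because they stood apart, vehicle replicates 1 and 4 left out together.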

Additional observations from a re-analysis of the deposited data

Results flagged for a closer look

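Among 120 genes examined, 240 groups of 6 libraries were checked for a library far from the others, and 24 held one. The limit used would mark about 1 in 20 groups by chance if groups were independent, which genes of the same libraries are not. Vehicle, stressed replicate 4 was the far library in 13 of them, with 22.8 CPM for UQCC1, 52.7 for DNAJB11, 65.1 for dbpb, 199 for nr1d2a, 76.3 for cipcb, 17.6 for si:ch1073-390k14.1, 155 for BHLHE41, 286 for tefa, 234 for CSNK1D, 39.7 for ciarta, 366 for NR1D2, 37.6 for TIMELESS and 33.8 for NEIL1. Vehicle, stressed replicate 1 stood apart at 95.5 CPM for HSPE1, 12.9 for POMC, 13.5 for COX11, 13.2 for uqcc4 and 125 for RAD54L2. Vehicle, stressed replicate 5 did so at 5.47 CPM for NFIL3 and replicate 6 at 11 CPM for avp. In the fluoxetine, stressed group, replicate 1 was far at 2.23 CPM for ogg1, replicate 5 at 26.1 CPM for NR3C2 and replicate 6 at 7.80 CPM for avp and 46.8 CPM for POMC. Of the 13 genes with such a vehicle replicate 1 or 4 that had passed, 10 passed without both replicates, among them dbpb (1.19) and NEIL1 (-1.14). The other 3 did not: cipcb (0.42, adjusted p = 0.0975), COX11 (-0.39, adjusted p = 0.0749) and uqcc4 (-0.42, adjusted p = 0.0705).

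For 39 of these 120 genes the log2 fold change differed between stressed and unstressed hypothalamus, by the interaction in edgeR (adjusted p under 0.05). Over all genes it did for 94 of 18380 (0.511%). Many of the 120 were named by their values in the stressed contrast, which is part of the interaction. For smu1b, PER1 (ENSDARG00000056885), BMAL1 (ENSDARG00000035732) and cry3b, the vehicle, stressed libraries held the deviating level. Among repressor-side clock genes the interaction (stressed minus unstressed log2 fold change) was 2.17 for nr1d4b, 1.76 for NR1D1, 1.42 for PER1 (ENSDARG00000056885), 0.76 for PER1 (ENSDARG00000012499), 1.77 for cipca, 1.55 for ciarta, 1.47 for BHLHE41, 0.59 for BHLHE40 and 0.70 for CRY2, and for the output factor dbpb it was 1.55. Among activators it was -2.82 for BMAL1 (ENSDARG00000035732), -1.43 for BMAL1 (ENSDARG00000006791), -2.50 for npas2, -1.42 for CLOCK (ENSDARG00000011703), -1.32 for bmal2, -1.22 for rorcb and -1.43 for rorca. The interaction was also negative for nfil3-5 (-0.98), cry3b (-2.67), cry3a (-1.76), cry4 (-0.97), cry5 (-1.89), cry-dash (-1.12), cpdp (-1.19), xrcc1 (-0.93), NEIL1 (-0.91) and RAD54L2 (-0.86). The mitochondrial genes SDHAF2 (-0.86), uqcc3 (-0.82) and HCCS (ENSDARG00000028131; -1.01) and the genes BLVRA (-2.26), lonrf4 (-1.36) and si:ch1073-390k14.1 (-1.92) followed. On the positive side were smu1b (2.09), si:ch211-132b12.7 (2.12), HSF2 (0.69), FOS (1.26), egr4 (1.17) and TPH1 (ENSDARG00000029432; 0.65). Between regions, hypothalamus minus telencephalon, the log2 fold change differed for smu1b (0.84) and nr1d4b (1.54).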

How the results depend on the processing

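Over 3401 values of single genes under an alternative, 3098 kept their side of the threshold, 279 lost and 24 gained the call, and 0 of a gene that passed reversed. Of the 3098, 41 values of 11 genes that did not pass in either fit had the other sign. The 380 genes of the stressed hypothalamus became 716 in DESeq2, 180 and 32 within the lower and higher range of library numbers (n = 3 a group) and 229 to 606 with 1 library left out. They were 403 with RLE scaling, 293 with no filter, 554 with the range as a term, 286 (254 shared) with the 12 libraries alone and 364 (262 shared) without vehicle replicates 1 and 4. With the replicate number as a block 496 passed, 362 of them shared. The numbers did not pair the stressed hypothalamus libraries (0 of 6 correlated best with their own number). The clock count was 15 in the higher range. The unstressed count, 4478, was 2292 and 1 within the ranges and 3063 to 5092 with 1 library left out. The interaction count, 94, was 269 in DESeq2, 384 without vehicle, stressed replicates 1 and 4, and 69 to 956 with 1 library left out. The telencephalon count, 645 (213 higher, 432 lower), was 1363 with the block (657 higher, 706 lower), 1308 in DESeq2, 175 and 49 within the ranges and 371 to 1299 with 1 library left out. The 4 region differences were 10 with the block, 9 with the range as a term, 20 in DESeq2 and 3 to 8 with 1 library left out. Fewer libraries were fitted in the ranges; other causes were not tested. A count of 3 in a library stands for 0.119 to 0.197 CPM, which limits the precision for low genes such as SLC6A4 and tac3b.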
